A study of Homo sapiens with 4 samples.

Results

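NEAT1 and MALAT1 are long noncoding RNAs that stay in the nucleus, and NONO, SFPQ and PSPC1 are RNA-binding proteins of the paraspeckle, the nuclear body that forms on NEAT1. These 5 genes were taken from a table of 62893 Ensembl genes by their current or older symbol, and each symbol matched 1 row. The table holds raw gene counts of poly(A) RNA from T24, an established human bladder carcinoma cell line. The groups were cells treated with siRNA against NSUN2 (siNSUN2, 2 libraries) and cells treated with control siRNA (siControl, 2 libraries). All 4 libraries came from the same parental line, and no other agent is named in the labels. How many siRNAs were used, and their sequence, is not stated in the labels. NSUN2 encodes a methyltransferase that places 5-methylcytosine on RNA, and the comparison asks how its knockdown changed transcript levels.

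Paraspeckles assemble on the long form of NEAT1 as it is transcribed. NONO and SFPQ bind that RNA early and are needed for the body to form, whereas PSPC1, the third protein of the same family, is a component that paraspeckles can form without. The family pairs its members into dimers through 2 RNA recognition motifs and a coiled coil, and its proteins also work in splicing, transcription and the repair of DNA breaks. MALAT1 is transcribed from the neighbouring gene and gathers at nuclear speckles, stores of splicing factors that lie beside paraspeckles.

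Depth and identity of the libraries were checked first. The siNSUN2 libraries held 92640839 and 33633249 counts in all, and the siControl libraries 42298529 and 215936965. NSUN2 itself stood at 29.6 and 30.1 CPM (counts-per-million, with library sizes scaled by TMM factors) in the siNSUN2 libraries, against 281 and 284 CPM in the siControl libraries. Of 17 genes that mark T24 or epithelial cells, 8 exceeded 1 CPM in every library, among them CD44 (1097 to 1242 CPM). KRT5, KRT19, EPCAM, CDH1, UPK2, UPK3A and TP63, which define urothelial or epithelial cells, stayed under 0.3 CPM. Of the 10 markers in this list that were tested, VIM, CDH2, PPARG and KRT7 rose, with log2 fold changes of 0.77, 0.60, 0.72 and 0.29. UPK1B and CD44 fell, with −1.13 and −0.15. Over all genes tested 27.1% rose and 25.5% fell. The value of KRT7 was −0.22 after a correction for GC content and transcript length (loess trends removed from each library, called the GC correction below), under which 3 of the 10 rose and 4 fell and CD44 did not pass (−0.01). The 12 markers of other cell types summed to 6.72 and 17.4 CPM in siNSUN2 cells and to 2.45 and 3.51 CPM in siControl cells, with PECAM1 at 0 counts throughout. None of the 12 passed 1 CPM in every library. VWF was the highest of the 12 in siNSUN2 replicate 2, at 8.73 CPM, but stood below COL1A1 in siNSUN2 replicate 1, at 1.80 CPM. In siControl cells VWF was at 0.165 and 0.113 CPM. COL1A1 rose, at 2.92 and 3.30 CPM in siNSUN2 cells, against 0.847 and 1.64 CPM in siControl cells, but did not pass with the GC correction or without either siNSUN2 library. The part of these other cell type markers in the results below was not tested. The labels do not say that each library came from its own culture. The p-values therefore reflect a spread that may be technical only.

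The ends of the noncoding RNAs bear on what a poly(A) library can count, so they are shown here from GENCODE release 29 (GRCh38 transcripts, written as DNA, 5′ to 3′). The short form of NEAT1 is polyadenylated, and the longest-reaching annotated short transcript ends at position 3716 of the long one. It is given by its last 60 bases, with the polyadenylation signal AATAAA in capitals.

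NEAT1 short end: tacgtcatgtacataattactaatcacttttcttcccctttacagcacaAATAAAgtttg

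The long form of NEAT1 and MALAT1 carry no poly(A) tail. RNase P cuts a tRNA-like RNA off their ends, and the A-rich end left behind is protected by folding back on U-rich stretches into a triple helix. The last 90 bases of the 22743-base NEAT1 transcript were set beside 90 bases of the 8708-base MALAT1 transcript that end at position 8355. Capitals mark the 2 stretches that both windows share, of 16 and 11 bases.

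NEAT1 long end: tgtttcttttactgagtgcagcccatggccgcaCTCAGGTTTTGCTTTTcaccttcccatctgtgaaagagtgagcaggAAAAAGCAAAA
MALAT1 end: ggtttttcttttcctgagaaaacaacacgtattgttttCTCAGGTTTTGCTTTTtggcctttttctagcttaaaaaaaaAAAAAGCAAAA

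The 16-base stretch was found in 2 of the longest transcripts of 16669 genes with at least 40 counts, those of NEAT1 and MALAT1 (0.012%). The 11-base stretch stood in 214 of them (1.28%), and a second time in MALAT1 at positions 753 to 763. Outside its end, the long NEAT1 transcript holds a run of 22 A at positions 18046 to 18067, in capitals with 20 bases on each side. In the 7 shorter NEAT1 transcripts the longest run of A was 5 bases.

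NEAT1 internal A run: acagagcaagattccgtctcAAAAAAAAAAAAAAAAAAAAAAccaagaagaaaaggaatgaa

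Oligo(dT) beads can hold RNA by a tail or by an encoded run of A. How much of each form was captured was not measured, and the table has 1 row per gene, so the short and long forms of NEAT1 cannot be told apart.

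Of the 5 genes, 2 rose (NEAT1 and MALAT1), 1 fell (NONO) and 2 did not pass the test (SFPQ and PSPC1). The test was edgeR's quasi-likelihood F-test over all genes, called at an adjusted p (Benjamini-Hochberg) under 0.05. All 5 passed the filter on low counts. Of 16889 genes tested, 27.1% were called higher, 25.5% lower and 52.6% in either direction, so a call in itself does not set a gene apart in these libraries. Among the 6375 genes with an average log2 CPM of at least 5, the level of all 5 members, 36.35% were higher and 39.14% lower. Only 24.52% of these were not called. CPM values of the groups did not overlap for 74.6% of the genes tested. With 2 libraries a group, an exact permutation test of a single value cannot go below p = 0.333. In RNA from whole cultures, a change in the share of cells that hold a transcript and a change per cell cannot be told apart.

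NEAT1 (ENSG00000245532), the scaffold of the paraspeckle, moved the most of the 5. It stood at 345 and 329 CPM in the siNSUN2 libraries, against 165 and 169 CPM in the siControl libraries. Both siNSUN2 libraries lay far above both controls, and the replicates of each group lay close together (337 ± 11.2 and 167 ± 3.23 CPM, mean ± SD, n = 2 each). The log2 fold change, siNSUN2 over siControl, was 1.01 (SE 0.042, 95% interval 0.92 to 1.11, adjusted p = 1.56e-07), a level 2.02-fold that of siControl cells. This was the 1235th highest of the 16889 log2 fold changes, above 92.7% of them. By raw counts NEAT1 ranked 470th and 482nd among all genes in the siNSUN2 libraries, and 1305th and 1294th in the siControl libraries.

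MALAT1 (ENSG00000251562) rose less. Its level was 1050 and 1069 CPM in siNSUN2 cells, against 788 and 824 CPM in siControl cells, and the groups did not overlap. The log2 fold change was 0.39 (SE 0.041, 95% interval 0.30 to 0.49, adjusted p = 3.74e-05), or 1.31-fold. With the GC correction it was 0.59. MALAT1 was the most abundant of the 5 by counts, ranked 75th and 69th in the siNSUN2 libraries and 127th and 124th in the siControl libraries.

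The NEAT1 count divided by the MALAT1 count of the same library needs no scaling between libraries. That ratio was 0.329 and 0.308 in siNSUN2 cells, against 0.209 and 0.205 in siControl cells, a difference of 0.62 on the log2 scale. The ratios of the groups did not overlap, and no test of this difference was run.

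NONO (ENSG00000147140), the protein that binds NEAT1 as a dimer with SFPQ, went the other way. It stood at 343 and 306 CPM in siNSUN2 cells, against 468 and 505 CPM in siControl cells. Both siNSUN2 libraries lay below both controls, but replicates within each group were further apart than for NEAT1 (324 ± 26.2 and 487 ± 26.4 CPM). The log2 fold change was −0.59 (SE 0.068, 95% interval −0.75 to −0.42, adjusted p = 5.94e-04), a level 0.67-fold that of siControl cells. Among the genes tested, 13.8% had a lower log2 fold change.

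SFPQ (ENSG00000116560), which directs dimers of the family into longer chains on RNA, was at 527 and 530 CPM in siNSUN2 cells, against 536 and 539 CPM in siControl cells. The log2 fold change was −0.03 (SE 0.037, adjusted p = 0.61), with a 95% interval from −0.11 to 0.06. The 4 libraries stood within a narrow range, in which the siNSUN2 libraries were the lower. PSPC1 (ENSG00000121390) was the least abundant, at 56.9 and 59.1 CPM in siNSUN2 cells, against 57.3 and 62.5 CPM in siControl cells. Its groups overlapped. The log2 fold change was −0.05 (SE 0.052, adjusted p = 0.476), with a 95% interval from −0.17 to 0.07. Without siControl replicate 1 the PSPC1 log2 fold change was −0.18, a setting in which the shift over all shared genes was −0.07. With the GC correction, SFPQ was at 0.04 and PSPC1 at 0.14 (adjusted p = 0.483 and 0.0576).

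**Figure D1:**
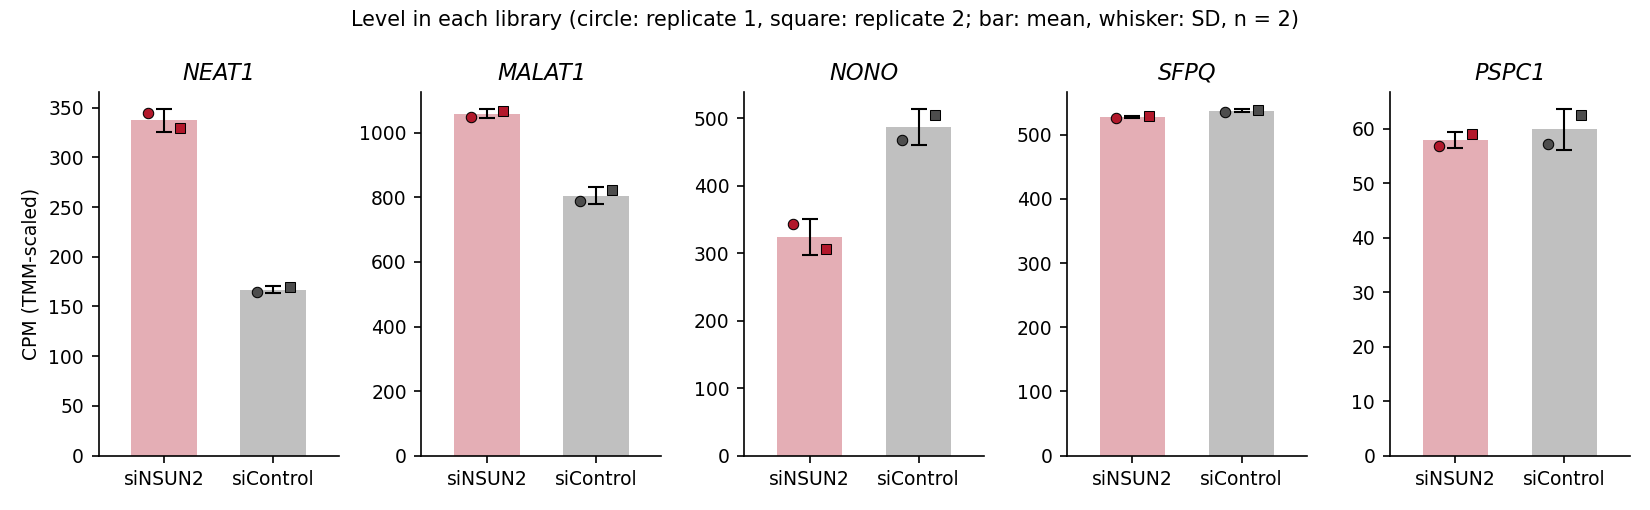
Level of each gene in CPM (y axis, linear from 0, its own scale in each panel) in siNSUN2 and siControl cells; bars are means, whiskers SD (n = 2), circles replicate 1 and squares replicate 2. NEAT1 and MALAT1 stand higher in both siNSUN2 libraries, NONO stands lower, and SFPQ and PSPC1 lie close to the controls.

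**Figure D2:**
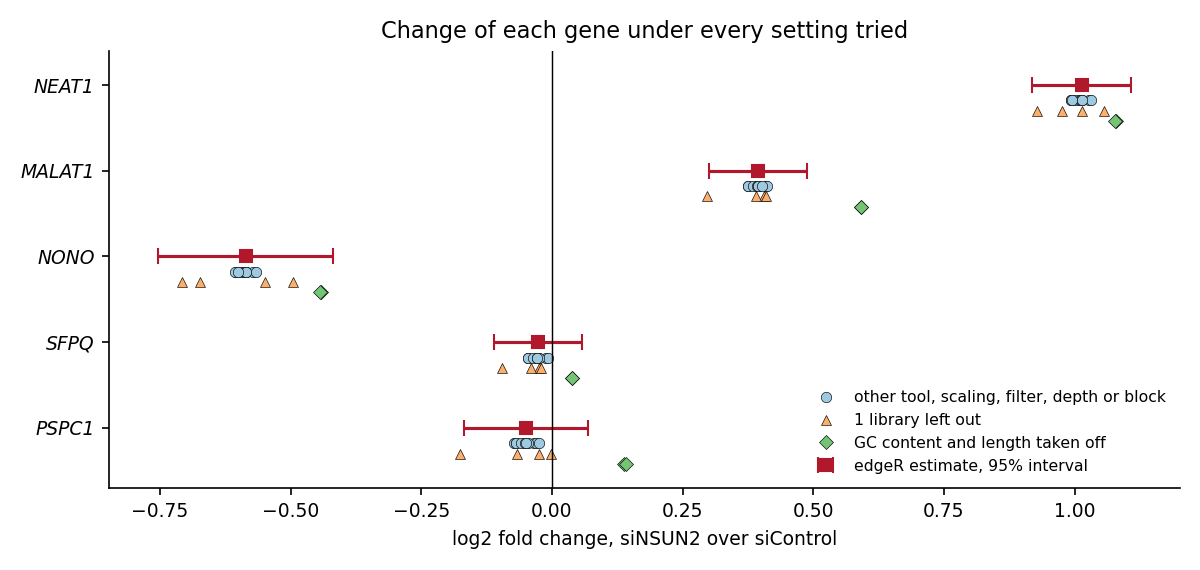
Log2 fold change of each gene (x axis, siNSUN2 over siControl) with its 95% interval (squares), and below it the values with another tool, scaling, filter, depth or block (circles), with 1 library left out (triangles) and with the GC correction (diamonds). NEAT1 stayed between 0.93 and 1.08, MALAT1 between 0.30 and 0.59 and NONO between −0.71 and −0.44.

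The balance among the 3 proteins differed between the groups at the RNA level. SFPQ had 1.54 and 1.73 counts for each NONO count in the siNSUN2 libraries, against 1.15 and 1.07 in the siControl libraries. For each PSPC1 count there were 6.02 and 5.17 NONO counts in siNSUN2 cells, against 8.17 and 8.08 in siControl cells. SFPQ counts for each PSPC1 count overlapped between the groups, at 9.25 and 8.96 in siNSUN2 cells, against 9.36 and 8.62 in siControl cells. NEAT1 and NONO had about equal counts in siNSUN2 cells, at 1.01 and 1.08 NEAT1 counts for each NONO count, against 0.352 and 0.335 in siControl cells.

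Levels of different genes were compared per length, as CPM per kilobase of the main GENCODE transcript. In siControl cells NONO was highest at 179 ± 9.73, followed by SFPQ at 143.5 ± 0.565, MALAT1 at 92.5 ± 2.92 and PSPC1 at 24.9 ± 1.54 (SD, n = 2). In siNSUN2 cells SFPQ came first at 141 ± 0.535, followed by MALAT1 at 122 ± 1.57, NONO at 119.5 ± 9.67 and PSPC1 at 24.1 ± 0.635. MALAT1 and NONO, neighbours in that order, did not differ beyond their spread, since the values of NONO were 126 and 113. MALAT1 carries no poly(A) tail, and how much of it was captured was not measured, so its place among the mRNAs is uncertain. The place of NEAT1 depended on which form the reads came from. Over the whole long transcript it had 14.8 ± 0.492 in siNSUN2 cells and 7.34 ± 0.142 in siControl cells, below PSPC1. Over the 3716 bases that reach the end of the short form it had 90.7 ± 3.01 in siNSUN2 cells and 44.9 ± 0.869 in siControl cells, above PSPC1.

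Sequence features of the 5 genes were searched for ACCCTA, a 6-base word picked because earlier results of these data tied it to lower levels in siNSUN2 cells. The main NONO transcript holds it 1 time, inside the coding sequence and as AACCCTA, and 9 of the 15 annotated NONO transcripts contain it. The long NEAT1 transcript holds it 3 times, all beyond the end of the short form, and none of the 7 shorter NEAT1 transcripts contains it. It was not found in the annotated transcripts of MALAT1, SFPQ or PSPC1. The sites are shown in windows of 30 bases with the word, and any A that extends it, in capitals. They are given from 5′ to 3′ on the transcript.

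NONO coding, at 563 to 568: ttggaaacccgAACCCTAgcggagattgcc
NEAT1 long form, at 17284 to 17289: caacatagtgatACCCTAtctcttaaaaaa
NEAT1 long form, at 20149 to 20154: atgtataatttgACCCTAgttagaatggtt
NEAT1 long form, at 22295 to 22300: ctcacctatcccACCCTActacacagagat

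The word is common. It stood in 18.7% of 2989 coding sequences within 20% of the 1413-base length of that of NONO, and in 82.7% of the 110 longest transcripts of at least 15000 bases. Of coding sequences near the length of those of SFPQ and PSPC1, 23.3% and 20.5% held it, and of transcripts near the length of MALAT1, 63.5%. Among coding sequences of about the length of NONO in genes with an average log2 CPM of at least 5, 70 held AACCCTA, and 44 of these genes fell (62.9%), with a median log2 fold change of −0.27. Of the 161 that held ACCCTA only without a leading A, 47.8% fell, with a median of −0.08. Of the 1154 without ACCCTA, 37.3% fell, and their median was 0.00. These shares come from the same data that singled out the word and are no independent support. NONO is among the 70, and a match in a transcript is a description, not a site of action.

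Rows found for genes that could share reads with the 5 were nearly empty. How many reads were shared or left uncounted was not measured. Another 7 genes annotated as overlapping the 5 have no row. The pseudogenes NONOP2, SFPQP1 and PSPC1P1 had 87, 5 and 53 counts over the 4 libraries, PSPC1P2 had 0, and PSPC1-AS2, an RNA antisense to PSPC1, had 35. AP000769.2, which overlaps MALAT1, had 9 counts. The longest identical stretch between the main transcripts of NONO, SFPQ and PSPC1 was 23 bases, between SFPQ and PSPC1. PSPC1 and PSPC1P1 share an identical stretch of 216 bases. The antisense transcript of MALAT1 was not analysed here.

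The genes whose levels moved most like each of the 5 were sought among 6370 other genes with an average log2 CPM of at least 5, by the Euclidean distance of centred log2 CPM over the 4 libraries. Nearest to NEAT1 were VPS28 and MAP1S (both 0.017), nearest to MALAT1 were CCDC117 (0.010) and STK10 (0.022), and nearest to NONO were ARF3 (0.044) and NOP56 (0.052). WAC (0.012) and KDM5A (0.013) lay nearest to SFPQ, and SLC25A38 (0.012) and EIF4H (0.021) to PSPC1. With 4 libraries in 2 groups, such closeness mostly records a like fold change.

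Of the 6 other factors named as needed for or strongly affecting paraspeckle assembly, 3 rose, 2 fell and 1 did not pass, and all their changes were smaller than that of NONO. HNRNPH3, a splicing regulator, fell to 229 and 229 CPM in siNSUN2 cells, against 316 and 314 CPM in siControl cells (log2 fold change −0.46, and −0.25 with the GC correction). RBM14, a protein with a prion-like domain, and SMARCA4, an ATPase that remodels chromatin, rose by 0.19 and 0.30, but their values turned to −0.17 and −0.19 after the GC correction. RBM14 was also at 0.08 without siControl replicate 1 (adjusted p = 0.299). HNRNPK, which favours the long form of NEAT1 by blocking the early poly(A) site, fell by 0.15 (adjusted p = 0.0469), but was at 0.09 with the GC correction. It was at −0.28 without siControl replicate 1, and at −0.09 and no longer passing without siControl replicate 2, nor did it pass without either siNSUN2 library. DAZAP1 had a log2 fold change of 0.01 (adjusted p = 0.812), with either sign among the settings tried. Without siControl replicate 1 the count of rises was 1, and without any other single library the count of falls was 1. The median of these 6 was 0.10, and −0.11 with the GC correction, beside 0.03 and 0.05 for all genes tested. Without that correction 27.1% of all genes tested rose and 25.5% fell.

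Among 34 other proteins found in paraspeckles, 30 were tested, and 9 rose, 11 fell and 10 did not pass (median −0.08). After the GC correction 8 rose and 7 fell. Over all genes tested 27.1% rose and 25.5% fell, and at an average log2 CPM of at least 5, 36.35% and 39.14%. The counts of this list lie near the latter shares. MATR3, a nuclear matrix protein that binds RNA, fell to 412 and 401 CPM in siNSUN2 cells, against 661 and 666 CPM in siControl cells (log2 fold change −0.71, and −0.46 with the GC correction). RBMX, a relative of the hnRNP proteins, fell by 0.56 (−0.30 with the GC correction), and ZNF335, part of a chromatin-modifying complex, rose by 0.84 (0.38 with the GC correction). Of those not tested, CELF6, DLX3 and RUNX3 had 0 to 0.117 CPM, and the row found for TAF15 was listed at 0 in every library, and its ID may differ in the annotation used for the counts. HNRNPA1, HNRNPA1L2 and SMN1 have near-identical copies, so their counts are uncertain.

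Genes that form or protect the 3′ ends of NEAT1 and MALAT1 fell more often than they rose. Of 17 tested, 11 fell, 0 rose and 6 did not pass (median −0.40, beside 0.03 for all genes tested, of which 25.5% fell). Among genes with an average log2 CPM of at least 5, a level that some of the 17 do not reach, 39.14% fell. Under the GC correction 11 fell and RPP14 rose (median −0.31), with ELAC2 and POP7 among the falls in place of TARDBP and HNRNPK, and 1 gene rose without siNSUN2 replicate 2. RPP14, counted as a subunit of RNase P, rested on few reads and stood at 0.664 and 0.847 CPM in siNSUN2 cells, against 0.353 and 0.428 CPM in siControl cells. NUDT21, the subunit of cleavage factor I that recognizes RNA and takes part in forming the short NEAT1, fell to 259 and 246 CPM in siNSUN2 cells, against 423 and 427 CPM in siControl cells (log2 fold change −0.75, SE 0.042, adjusted p = 6.98e-07; −0.48 with the GC correction). CPSF6, its partner subunit, fell by 0.54 (−0.30 with the GC correction). METTL16, an RNA methyltransferase that binds the triple helix of MALAT1, fell to 39.0 and 38.9 CPM in siNSUN2 cells, against 62.1 and 65.1 CPM in siControl cells (−0.71). POP4, a protein subunit of RNase P, fell by 0.55. ELAC2, which trims the tRNA-like fragments, had a log2 fold change of −0.01 (adjusted p = 0.914), but fell with the GC correction (−0.13, adjusted p = 0.0393). NUDT21, CPSF6, CPSF7 and TARDBP are counted also among the other paraspeckle proteins, and HNRNPK among the assembly factors.

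Nuclear speckle proteins, the surroundings of MALAT1, showed 2 rises, 6 falls and 9 genes that did not pass among 17 tested (median −0.10). All 17 had an average log2 CPM of at least 5, a level at which 36.35% of genes rose and 39.14% fell. These counts therefore do not set the list apart. None of the 17 fell with the GC correction, and UHMK1, SRSF4 and SRSF5 rose in place of SRRM2 and PRPF6. Without siControl replicate 1, 11 of the 17 fell and 1 rose, and without siNSUN2 replicate 1 the count of rises was also 1. PNN, SRSF11, RBM25 and SRSF7, all splicing factors or their partners, fell by 0.38, 0.28, 0.30 and 0.24. Their values with the GC correction were −0.12, 0.01, −0.07 and 0.01, and none passed.

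Factors that bind the NEAT1 promoter or change its transcription gave 1 rise and 4 falls among 7 tested (median −0.15), and 1 rise and 2 falls with the GC correction (median −0.03). ATF2, a transcription factor of the stress response, fell by 0.15 but was called higher with that correction (0.13, adjusted p = 0.0388). HIF1A, the hypoxia-inducible factor subunit, fell to 84.3 and 79.3 CPM in siNSUN2 cells, against 262 and 268 CPM in siControl cells (log2 fold change −1.70, adjusted p = 2.97e-08). EPAS1, the related subunit reported to drive NEAT1 in hypoxia, had a log2 fold change of 0.06 (adjusted p = 0.613). HSF1, the heat shock factor, rose by 0.62, but was at 0.01 with the GC correction. BRCA1 fell by 0.29 (−0.10 with the GC correction, not passing), and POU5F1, whose family has near-identical copies, fell by 0.71. Without siNSUN2 replicate 1 the count of rises was 2. ESR1 was not tested, at 0 to 0.0292 CPM. Over all genes tested 27.1% rose and 25.5% fell, and at an average log2 CPM of at least 5, 36.35% and 39.14%.

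NEAT1 also joins HEXIM1 with DNA repair and DNA-sensing proteins in a complex that holds paraspeckle proteins as well. Of 5 transcripts listed for its other proteins, XRCC6, XRCC5, CGAS and PRKDC fell and HEXIM1 did not pass (0.15, adjusted p = 0.0563). Of all genes tested 25.5% fell, and of those with an average log2 CPM of at least 5, 39.14% fell. XRCC6 and XRCC5, the Ku proteins that bind broken DNA ends, were at 271 and 262 CPM and at 468 and 446 CPM in siNSUN2 cells, against 602 and 606 CPM and 806 and 784 CPM in siControl cells. Their log2 fold changes were −1.18 and −0.80. CGAS, a sensor of cytosolic DNA, and PRKDC, the kinase that Ku recruits, fell by 0.48 and 0.31. With the GC correction CGAS was at −0.28, and HEXIM1 rose (0.24). Without siNSUN2 replicate 1 the count of rises was 1.

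Of 6 transcripts reported as held in paraspeckles or regulated through them, 4 were tested, and CXCL8 and DDX60 rose, RIGI fell and NICN1 did not pass. Over all genes tested 27.1% rose and 25.5% fell. CXCL8, the chemokine that SFPQ represses until NEAT1 draws SFPQ away from its promoter, stood at 154 and 148 CPM in siNSUN2 cells, against 75.2 and 73.2 CPM in siControl cells. Its log2 fold change of 1.02 (SE 0.043, adjusted p = 1.75e-07) was close to that of NEAT1, and it was 1.36 with the GC correction. A link between the changes of CXCL8 and NEAT1 was not tested. DDX60 rose by 0.53, and RIGI, a sensor of viral RNA, fell by 0.40 (−0.16 with the GC correction). ADARB2 and LIN28A had at most 0.0327 CPM and were not tested.

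**Figure D3:**
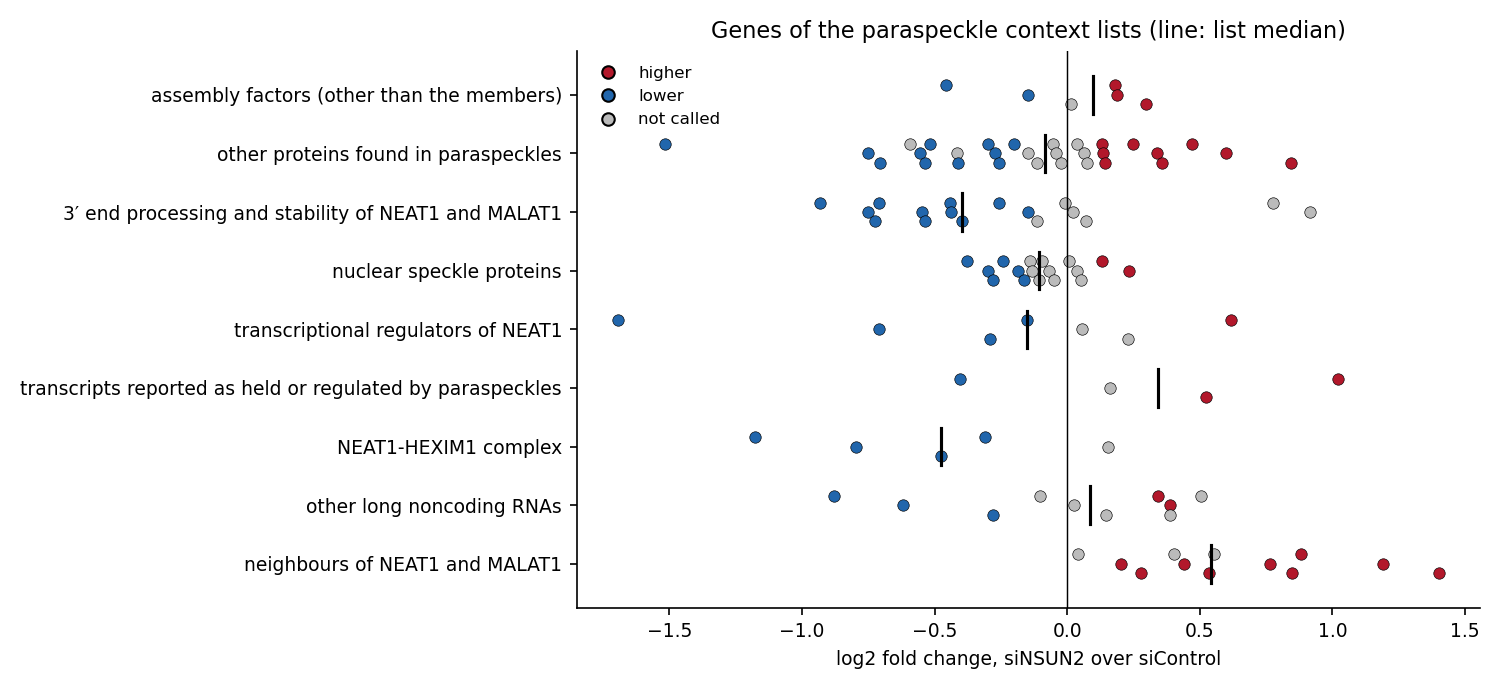
Log2 fold change (x axis, siNSUN2 over siControl) of each tested gene in the lists on the y axis, coloured by the edgeR call, with the list median as a black line. The 3′ end list holds 11 falls and 0 rises, and the neighbours of NEAT1 and MALAT1 hold 9 rises and 0 falls (5 rises and 1 fall with the GC correction). Of all genes tested, 27.1% rose and 25.5% fell.

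NEAT1 and MALAT1 lie side by side on chromosome 11, and most genes on either side rose as well, though fewer with the GC correction. Of 12 neighbours tested, 9 rose, 0 fell and 3 did not pass, while 27.1% of all genes tested rose. With the GC correction 5 neighbours rose, 1 fell and 6 did not pass. The median log2 fold change of the neighbours was 0.54 without it. SLC25A45, a mitochondrial carrier, rose the most of them (1.40, and 0.99 with the GC correction). FRMD8, next to NEAT1, stood at 59.7 and 59.2 CPM in siNSUN2 cells, against 32.1 and 32.4 CPM in siControl cells (log2 fold change 0.88). Beyond MALAT1, LTBP3, a binding protein for latent TGF-beta, rose by 1.19. EHBP1L1 and MAP3K11 further on rose by 0.76 and 0.85. These neighbours are rich in G and C, with a median GC content of 61.4%, beside 47.8% for all genes tested. The median with the GC correction was 0.14, and ZNRD2 was the gene that then fell (−0.52, against 0.20 without it). FRMD8, LTBP3, EHBP1L1 and MAP3K11 were then at 0.43, 0.42, 0.16 and 0.47. NEAT1 and MALAT1, with a GC content of 44.1% and 40.3%, were at 1.08 and 0.59 with the same GC correction, against 1.01 and 0.39 without it. The median of all genes tested was 0.05 with that correction, against 0.03 without it. The part of the chromosomal position in the rises was not tested.

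**Figure D4:**
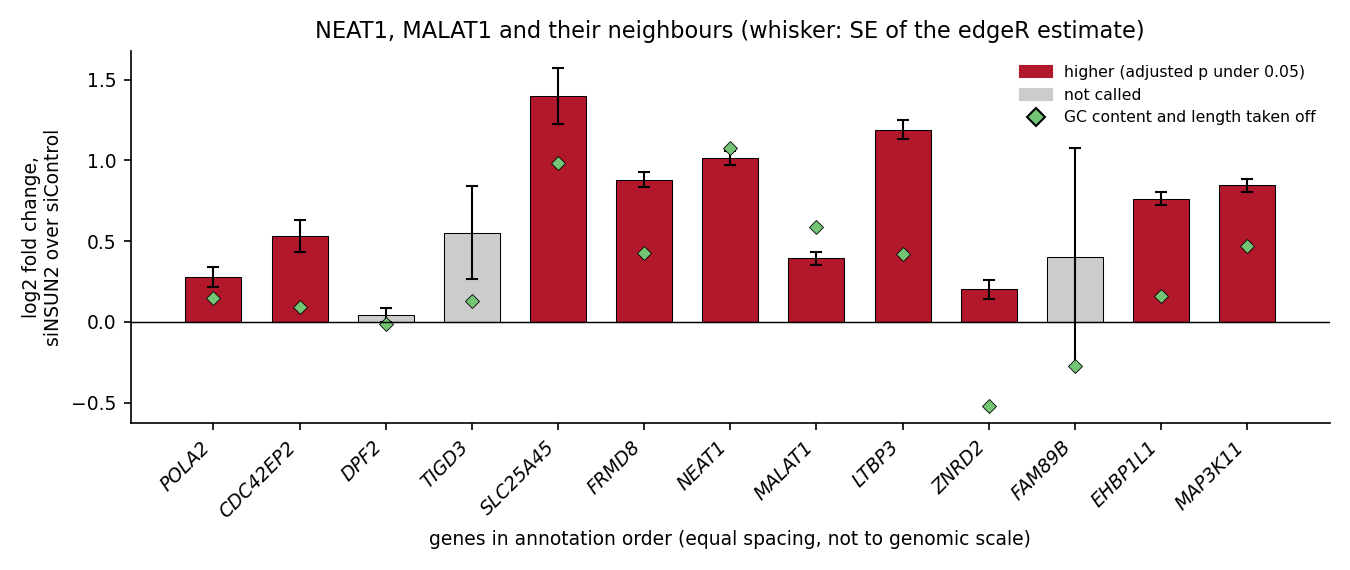
Log2 fold change (y axis, siNSUN2 over siControl) of NEAT1, MALAT1 and 11 of the 12 tested neighbours in annotation order (x axis, equal spacing); bars are edgeR estimates with SE, red where called higher, and diamonds are the values with the GC correction. The diamonds fall below the tops of the bars for the neighbours drawn and stand above them for NEAT1 and MALAT1.

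Other noncoding RNAs did not share 1 direction. Of 592 lincRNA genes tested, 59 rose and 69 fell, and the median log2 fold change was −0.03. Only 10 of them had an average log2 CPM of at least 5, of which 6 rose and 1 fell, NEAT1 and MALAT1 included. Of all 6375 genes at that level, 36.35% rose and 39.14% fell. Of 13 further long noncoding RNAs looked up by name, 10 were tested, and 2 rose, 3 fell and 5 did not pass (2, 2 and 6 with the GC correction). NORAD, which holds PUMILIO proteins in the cytoplasm, was at 723 and 707 CPM in siNSUN2 cells, against 534 and 558 CPM in siControl cells. Its log2 fold change of 0.39 (0.61 with the GC correction) was near that of MALAT1, and OIP5-AS1 rose by 0.34 (0.56 with the GC correction). TUG1 fell to 159 and 158 CPM in siNSUN2 cells, against 241 and 246 CPM in siControl cells (log2 fold change −0.62), and DANCR fell by 0.88.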

How the data were processed

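The deposited values are raw read counts, 1 row for each Ensembl gene and 1 column for each of 4 libraries. HISAT2, HTSeq and build hg19 are named per the submitters' processing notes. Versions, annotation and strand setting are not given in these sources, so overlapping and antisense reads cannot be separated. Symbols were found for 51537 of 62893 IDs. GENCODE release 29 (GRCh38) supplied transcript sequence, GC content, length and gene order only. The 5 genes, the lists and the naming rule (all 5 genes, and up to 4 called genes with the smallest p from each list, the assembly factors in full) were chosen with earlier results of these data known. Other genes named, such as CD44, UPK1B, ATF2, POP7, TARDBP, VWF, EPAS1, ELAC2, RPP14, HEXIM1, SLC25A45, ZNRD2, UHMK1, SRSF4, SRSF5, SRRM2 and PRPF6, were chosen after their values were seen, as were the ratios between genes. A few genes of the lists are counted but not reported by name here.

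Counts were tested with edgeR 4.0.16 in R 4.3.3 (robust quasi-likelihood F-test, two-sided, TMM factors, filterByExpr, no replicate block, Benjamini-Hochberg). SE values come from the F statistic. The smallest count of a member, 2023, carries a counting error of 2.22%. Alternatives were DESeq2 1.42.0, limma-voom (limma 3.58.1), other scaling and filters, the block, thinned counts, each library left out, and removal of loess trends on GC content and transcript length from each library (the GC correction).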

Additional observations from a re-analysis of the deposited data

How the results depend on the processing

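Each result was recomputed under 17 alternatives, except that VIM and COL1A1 had 16, as VIM is among the 50 most abundant genes and COL1A1 has a mean under 5 CPM. NEAT1, MALAT1 and NONO kept their direction and passed in all 17, over ranges of 0.93 to 1.08, 0.30 to 0.59 and −0.71 to −0.44. SFPQ turned to 0.038 with the GC correction, and likewise with the replicate block added. The PSPC1 log2 fold change turned to 0.138 and, with the block added, to 0.142, where it passed as higher (adjusted p = 0.00157). With single libraries left out PSPC1 ranged from −0.176 to −0.001, and passed as lower only without siControl replicate 1. Counts of genes called ranged from 3720 to 5027 higher and from 3505 to 4788 lower. The labels do not say what same-numbered libraries share, and the correlation between their deviations was 0.237. The replicate block alone gave NEAT1 1.01, MALAT1 0.40, NONO −0.59, SFPQ −0.03 and PSPC1 −0.05, with 5027 genes higher and 4788 lower. Among the other named genes and list counts, the GC correction turned SMARCA4 to −0.191 (−0.192 with the block), RBM14 to −0.169 (−0.167), HNRNPK to 0.09 (0.091), DAZAP1 to −0.053 (−0.054), SRSF11 to 0.008 (0.007), SRSF7 to 0.013 (0.013) and KRT7 to −0.215 (−0.215). DAZAP1, never called, was also at −0.005 with DESeq2, −0.006 with RLE factors, −0.001 with thinned counts and between −0.058 and 0.049 with 1 library left out. The cause was not tested. Of these other values, 937 stayed the same, meaning direction and call for a fold change and within 1.5 times for a count. Of the rest, 42 counts moved by over 1.5 times, or to or from 0, and 20 fold changes were no longer called. Without siControl replicate 1 the shift over all shared genes was −0.067. With the GC correction the median of all genes tested was 0.05, against 0.03 without it. RPP14, with 15 to 91 counts in a library, and TIGD3, with 31 to 164, had few reads. RPP21 and FAM89B differed widely between replicates, at 2.93 and 1.52 CPM and at 4.21 and 1.58 CPM in the siNSUN2 libraries.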
